A study of Mus musculus with 24 samples.

Results

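Siglech, Tcf4, Ccr9, Klk1, Pacsin1, Runx2 and Spib are genes used to recognise plasmacytoid dendritic cells in the mouse. They were read here by symbol from a list, as 7 of the 55025 gene symbols in the count table, and all 7 were present and passed the filter on low counts. The 24 libraries hold RNA of CD45+CD4+ or CD45+CD8+ cells, sorted from spleens and from pancreatic tumors, and form 8 groups of 3. All animals, controls included, had the genotype TCR alpha-/-, a disruption of the alpha chain gene of the T cell receptor. Each carried an M8 organoid tumor placed in the pancreas. They received vehicle, or LCL161 at 75 mg/kg by gavage at intervals of 3 days from day 4, and organs were collected on day 12, by which time 3 doses had been given. The 4 populations, named here spleen CD4, spleen CD8 and, likewise, tumor CD4 or tumor CD8, were each taken with vehicle and with LCL161. LCL161 mimics the protein SMAC and drives the ubiquitin ligases cIAP1 and cIAP2 to degradation. The labels state neither the age of the mice nor the derivation of the organoids, nor whether each replicate is its own mouse. The p-values therefore measure the spread between these libraries, which may be technical.

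Plasmacytoid dendritic cells are rare blood-borne cells that sense viral nucleic acids with endosomal Toll-like receptors and can release large amounts of type I interferon. Their identity depends on the E protein E2-2, encoded by Tcf4, working against the inhibitor Id2, and they share parts of their program, Spib among them, with B cells. In the mouse some of them carry CD4 or CD8 alpha on the surface, so a gate on CD45 and CD4 or CD8 without a T cell marker can hold them. The other 6 genes encode a surface lectin (Siglech), a chemokine receptor (Ccr9), a serine protease (Klk1), an endocytic adaptor (Pacsin1) and a pair of transcription factors (Runx2, Spib).

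To show the sequences next to which these RNAs start, the stretch from 250 to 11 bases before the RefSeq start was read (RefSeq, GRCm38.p6). Tcf4 was left out, and of the others those whose window holds no annotated exon of the gene are given. All 3 lie on chromosome 7, and Klk1 and Spib are near neighbours there. Siglech, Klk1 and Spib recur in the results below, where their ratios to each other differed between the tissues. With each library set against its group mean, they varied together (Pearson's r from 0.83 to 0.92). Capitals mark matches on either strand to CACCTG, an E-box of the kind E proteins bind, or to TGTGGT, the core bound by RUNX factors (ACCACA on the other strand).
Siglech, chr7:55767934-55768173, plus strand: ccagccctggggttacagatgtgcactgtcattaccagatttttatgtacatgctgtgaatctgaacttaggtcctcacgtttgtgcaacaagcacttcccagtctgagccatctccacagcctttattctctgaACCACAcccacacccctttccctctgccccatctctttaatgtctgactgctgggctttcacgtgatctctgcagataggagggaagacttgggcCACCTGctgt
Klk1, chr7:44225110-44225349, plus strand: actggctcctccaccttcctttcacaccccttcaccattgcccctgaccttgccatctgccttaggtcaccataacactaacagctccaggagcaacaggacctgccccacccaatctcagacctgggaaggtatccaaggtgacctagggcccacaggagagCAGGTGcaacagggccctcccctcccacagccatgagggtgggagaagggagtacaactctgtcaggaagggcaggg
Spib, chr7:44532082-44532321, minus strand: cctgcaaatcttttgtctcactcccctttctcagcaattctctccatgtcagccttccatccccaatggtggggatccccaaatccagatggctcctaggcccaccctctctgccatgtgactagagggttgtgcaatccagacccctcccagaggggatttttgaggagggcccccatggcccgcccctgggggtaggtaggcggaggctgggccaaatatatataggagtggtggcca
The Siglech window held one CACCTG match, from -20 to -15, and one RUNX match on the minus strand, from -115 to -110. The Klk1 window held one CACCTG match on the minus strand, from -87 to -82. The Spib window held no match to either. Neither CAGCTG, a second E-box, nor the Ets core GAGGAA was found in the 3 windows. Over the 32851 windows of the same length in the RefSeq table, 16.6% held CACCTG, 13.6% TGTGGT, 12.4% CAGCTG and 22.3% GAGGAA. Matches this common describe the letters of the window and are not binding sites.

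What each value can be trusted to count depends on the gene's surroundings, taken from GENCODE M21 (GRCm38). Siglech (ENSMUSG00000051504, chromosome 7, 55768178 to 55778925, plus strand), Spib (ENSMUSG00000008193, chromosome 7, 44525993 to 44532071, minus strand) and Pacsin1 (ENSMUSG00000040276, chromosome 17, 27655509 to 27711482, plus strand) overlap no exon of another gene. Ccr9 (ENSMUSG00000029530, chromosome 9, 123678439 to 123784330, plus strand) shares exonic bases with Slc6a20a and AC165425.1 on the other strand and with Gm17200 on its own. Runx2 (ENSMUSG00000039153, chromosome 17, 44495987 to 44814797, minus strand) is overlapped by the antisense gene Runx2os1. The strand setting used in counting was not given in the sources used here. Reads of these partners cannot be told apart from those of Ccr9 and Runx2.

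Klk1 (ENSMUSG00000063903, chromosome 7, 44225360 to 44229618, plus strand) is the first gene of a cluster of near copies, the Klk1b genes. Of its 1072 exonic stretches of 50 bases, 257 also occur in another gene, most often in Klk1b5, and the authors' counting could split reads between them. The Klk1b genes together had 22.9% to 34.6% of the Klk1 level in the 12 vehicle libraries. With LCL161 the range was 24.2% to 175%, the highest being spleen CD4 replicate 1 with 34.9 CPM of Klk1b RNA beside 19.99 CPM of Klk1. Klk1 values are for this reason less certain than those of Siglech, Tcf4, Pacsin1, Runx2 and Spib, which share under 0.5% of their stretches with other genes, and of Ccr9, which shares 2.13%. Tcf4 (ENSMUSG00000053477, chromosome 18, 69343356 to 69689079, plus strand) has 62 annotated transcripts and overlaps no exon of another gene.

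Levels are counts-per-million values (CPM), relative to the scaled library total, for replicates 1, 2 and 3 in that order. Library totals ran from 15455700 to 25145400 counts. Cd4 and Cd8a followed the sort, with 688 to 1430 CPM of Cd4 and 0.0549 to 3.98 CPM of Cd8a in CD4-sorted libraries and 7.07 to 31.7 and 565 to 1159 CPM in CD8-sorted ones. Trac, the targeted gene, had 63.2 to 1082 CPM in CD4-sorted and 9.30 to 35.5 CPM in CD8-sorted libraries, and since the deleted part is not given it does not check the genotype. The labels call the sorted cells T cells, and the 13 T cell markers summed to 4189 to 10605 CPM, with none at 0 in a whole group. This list holds Cd4, Cd8a and Cd8b1, so part of the sum follows from the sort. Markers of other cells were present beside those of T cells. The 12 B cell markers summed to 846 to 2892 CPM in spleen and 42.2 to 371 CPM in tumor libraries, and the 12 conventional dendritic cell markers reached 8254 to 9062 CPM in spleen CD8 vehicle against 360 to 4440 CPM in the other groups. In such sorted bulk samples, fewer cells of a type and less RNA per cell cannot be told apart.

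Siglech, the sialic acid-binding lectin that serves as an endocytic receptor on plasmacytoid dendritic cells, was present in every library, from 35.0 to 952 CPM. In spleen CD4 it had 952, 194 and 640 CPM under vehicle and 80.4, 210 and 339 CPM under LCL161. In spleen CD8 it had 97.3, 114 and 65.0 CPM under vehicle and 96.6, 102 and 90.5 CPM under LCL161. Spleen CD4 vehicle was thus the highest group, and its replicate 2 stood at the level of the LCL161 libraries. In tumor CD4 the values were 106, 241 and 47.7 CPM under vehicle and 59.5, 35.0 and 40.7 CPM under LCL161. In tumor CD8 they were 107, 262 and 182 CPM under vehicle and 161, 202 and 79.7 CPM under LCL161. Vehicle and LCL161 ranges overlapped in all 4 populations.

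Tcf4, whose product E2-2 holds the plasmacytoid identity in place, was spread in the same way. It had 304, 72.9 and 251 CPM in spleen CD4 vehicle and 31.7, 96.9 and 110 CPM under LCL161. Spleen CD8 held 70.6, 84.0 and 67.7 CPM under vehicle and 51.6, 60.6 and 45.6 CPM under LCL161, which do not overlap. Replicate 2 was again the low one of spleen CD4 vehicle. Tumor CD4 held 38.5, 71.3 and 29.4 CPM under vehicle and 27.7, 22.5 and 22.0 CPM under LCL161, also without overlap. Tumor CD8 held 38.2, 87.0 and 68.5 CPM under vehicle and 57.0, 88.05 and 25.9 CPM under LCL161, where the ranges coincide. Spib, an Ets factor of plasmacytoid dendritic cells and B cells, had 458, 147 and 384 CPM in spleen CD4 vehicle and 146, 208 and 197 CPM under LCL161. In spleen CD8 it had 125, 114 and 125 CPM under vehicle and 131, 88.6 and 54.1 CPM under LCL161. The lowest of the 6 spleen CD4 libraries had 146 CPM and the highest of the 12 tumor libraries 84.7 CPM. The tumor CD4 values were 38.2, 84.7 and 14.4 CPM under vehicle and 16.8, 10.3 and 9.97 CPM under LCL161, and those of tumor CD8 26.0, 68.6 and 54.4 CPM under vehicle and 36.9, 45.8 and 16.9 CPM under LCL161.

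Runx2, a RUNX factor best known from bone and also used by plasmacytoid dendritic cells, varied least. It had 137, 96.8 and 138 CPM in spleen CD4 vehicle and 47.3, 53.2 and 116 CPM under LCL161. Spleen CD8 held 42.0, 59.2 and 42.0 CPM under vehicle and 65.1, 48.9 and 54.2 CPM under LCL161. In spleen CD4 with LCL161 it was replicate 3 that stood apart, near the vehicle level. The tumor values ran from 73.1 to 109 CPM in CD4 vehicle, 81.2 to 119 CPM in CD4 LCL161, 77.8 to 101 CPM in CD8 vehicle and 60.7 to 82.3 CPM in CD8 LCL161.

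Klk1, tissue kallikrein, a protease that frees kinins, had a wide range, from 4.04 to 232 CPM. Spleen CD4 held 232, 38.9 and 174 CPM under vehicle and 19.99, 38.4 and 53.7 CPM under LCL161, and spleen CD8 13.6, 13.5 and 7.68 CPM under vehicle and 7.66, 4.04 and 5.22 CPM under LCL161. Tumor CD4 held 43.7, 125 and 23.1 CPM under vehicle and 9.49, 9.54 and 9.30 CPM under LCL161, and tumor CD8 24.2, 53.4 and 30.7 CPM under vehicle and 10.2, 23.8 and 7.97 CPM under LCL161. In 3 of the 4 populations every LCL161 library was below every vehicle library, though in spleen CD8 and tumor CD8 the nearest libraries were 7.66 against 7.68 CPM and 23.8 against 24.2 CPM. The share of all genes that separate in this way was not computed. Pacsin1, an adaptor of membrane uptake that plasmacytoid cells need for their interferon response, had 91.9, 44.5 and 63.1 CPM in spleen CD4 vehicle and 54.2, 36.9 and 29.7 CPM under LCL161. Spleen CD8 held 19.5, 25.2 and 17.6 CPM under vehicle and 25.2, 25.3 and 19.8 CPM under LCL161. The lowest values came from the tumor. Tumor CD4 held 8.54, 20.02 and 3.37 CPM under vehicle and 2.86, 6.28 and 0.978 CPM under LCL161, and tumor CD8 10.8, 23.9 and 19.8 CPM under vehicle and 16.9, 21.5 and 8.93 CPM under LCL161. Ccr9, the receptor for CCL25 that also guides T cells to the gut, had 399, 76.8 and 224 CPM in spleen CD4 vehicle and 33.4, 72.0 and 126 CPM under LCL161. It ran from 53.8 to 85.0 and 54.8 to 64.6 CPM in spleen CD8, from 30.3 to 164 and 23.3 to 59.8 CPM in tumor CD4, and from 69.8 to 159 and 83.7 to 152 CPM in tumor CD8, vehicle first.

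**Figure D1:**
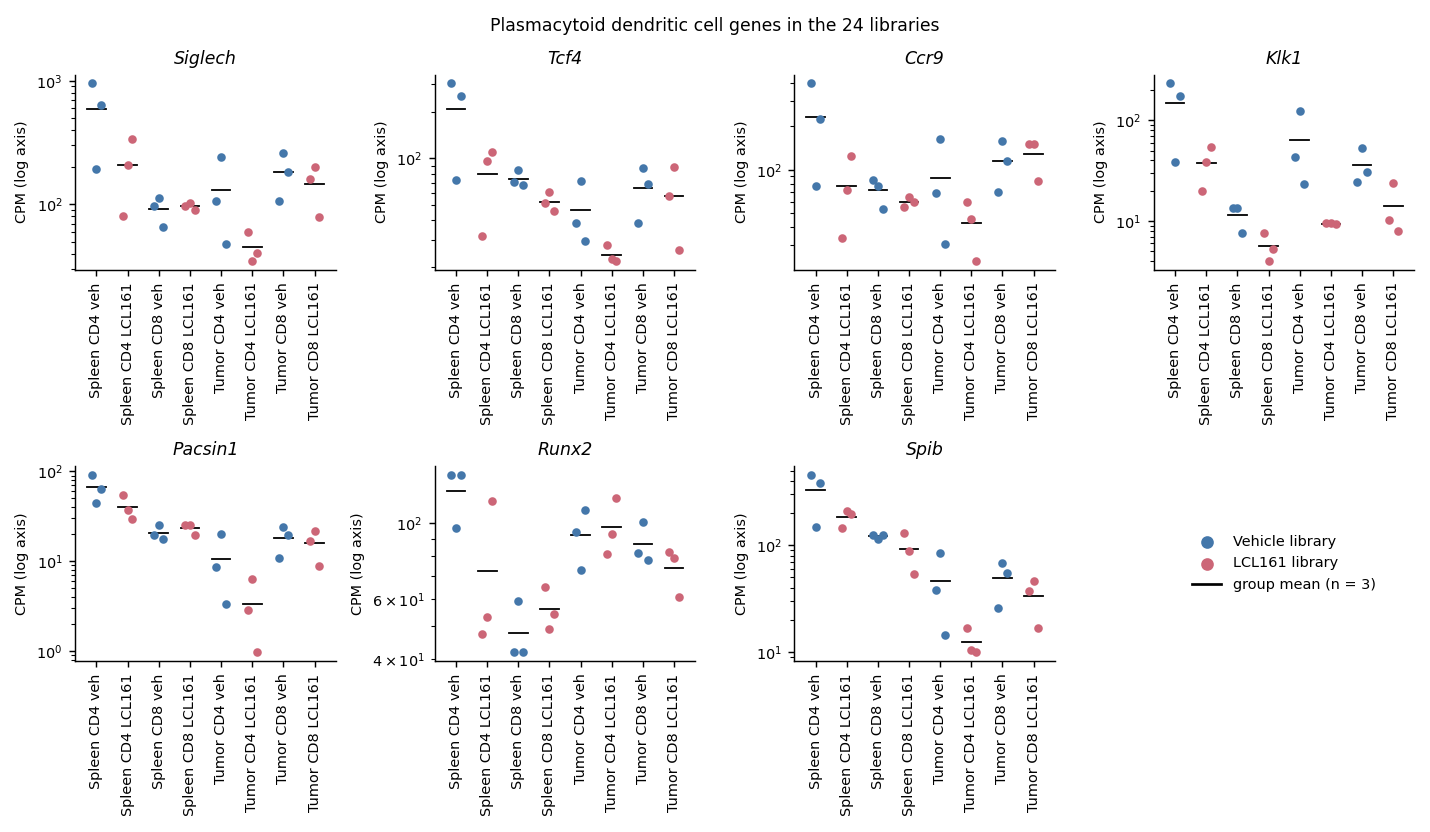
Level of each of the 7 genes (CPM, log axis) in the 24 libraries, 3 points a group, with the group mean as a black bar and vehicle in blue and LCL161 in red. Spleen CD4 vehicle has the highest mean for every gene, and within it 1 library, replicate 2, is the lowest for all 7.

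Between genes, levels can be set side by side only per length. Per kilobase of annotated exon, Siglech, Klk1 and Spib were the 3 highest in spleen CD4 vehicle, with 176 ± 113, 138 ± 92.0 and 115 ± 56.7 CPM per kb (SD, n = 3). Siglech was the highest of the 3 in each library. Klk1 was above Spib in replicates 1 and 3 and below it in replicate 2 (36.1 against 51.2 CPM per kb). Ccr9 (22.7 ± 15.7), Runx2 (14.1 ± 2.68), Pacsin1 (10.2 ± 3.66) and Tcf4 (7.64 ± 4.42 CPM per kb) followed, with neighbours again within each other's spread. The length used for Tcf4, 27382 bases over all annotated transcripts, is longer than any single RNA and lowers its value. In spleen CD8 vehicle Spib was first (42.4 ± 2.34 CPM per kb), ahead of Siglech (27.2 ± 7.31) and Klk1 (10.8 ± 3.15). In tumor CD8 vehicle the order was Siglech (54.3 ± 22.9), Klk1 (33.5 ± 14.2) and Spib (17.3 ± 7.56 CPM per kb). In tumor CD4 vehicle Klk1 (59.2 ± 49.8 CPM per kb) was listed before Siglech (38.8 ± 29.3). It was above Siglech in each library (40.5, 116 and 21.5 against 31.3, 71.1 and 14.1 CPM per kb). These orders were not tested.

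Across the 24 libraries the genes fell into looser and tighter company, given here as a description, since the libraries share the 8 groups and these genes were chosen together. Siglech followed Tcf4 (Pearson's r = 0.92 on log2 CPM, 24 libraries) and Ccr9 (0.90), then Klk1 (0.80), and Runx2 least (0.40). With each library set against its group mean, so that group differences drop out, the coefficient of Siglech was 0.94 with Tcf4, 0.95 with Ccr9, 0.92 with Klk1, 0.85 with Spib and 0.50 with Pacsin1. Pacsin1 and Spib followed each other (0.90), and Runx2 followed neither (-0.13 and -0.09). Spib also followed the summed B cell markers (0.90, and 0.81 over the 12 spleen and 0.68 over the 12 tumor libraries), as did Pacsin1 (0.77, and 0.69 and 0.52). For Siglech that coefficient was 0.47 (0.63 in spleen, 0.67 in tumor), for Tcf4 0.64 (0.64 and 0.61), for Ccr9 0.26 (0.49 and 0.73), for Klk1 0.19 (0.70 and 0.48) and for Runx2 -0.32 (0.42 and -0.57). Within a tissue the coefficients of Siglech, Tcf4, Ccr9 and Klk1 (0.48 to 0.73) were thus in the range of those of Pacsin1 and Spib or near it.

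Among 12064 other genes with at least 1 CPM on average, the 10 with a profile most like that of Siglech were Smim5 (Pearson's r = 0.98 over 24 libraries), Cd300c (0.97), D13Ertd608e, Chdh, Cox6a2, Clec10a, Paqr5, Atp1b1, Upb1 and Atp2a1 (0.93). Smim5, Cd300c, Cox6a2, Atp1b1 and Upb1 were on the list of other plasmacytoid markers. Clec10a was on that of conventional dendritic cell markers, and D13Ertd608e, Chdh, Paqr5 and Atp2a1 were on none of the lists. Those most like Tcf4 were Cyb561a3, Cybb and Ceacam2, and those most like Ccr9 Dntt, Clec10a and Lefty1. The nearest profile to Klk1 was that of its copy Klk1b5 (0.99), with which it shares sequence, before Man1c1 and Pltp. Pacsin1 had Tnfrsf13b, Fcrla and Rnf122, and Spib Blnk, Tnfrsf13b and Ly6d, several of which B cells also express. Runx2 had lower coefficients with its nearest genes Rell1, Rhbdf2 and Pqlc3 (0.85 to 0.84).

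**Figure D2:**
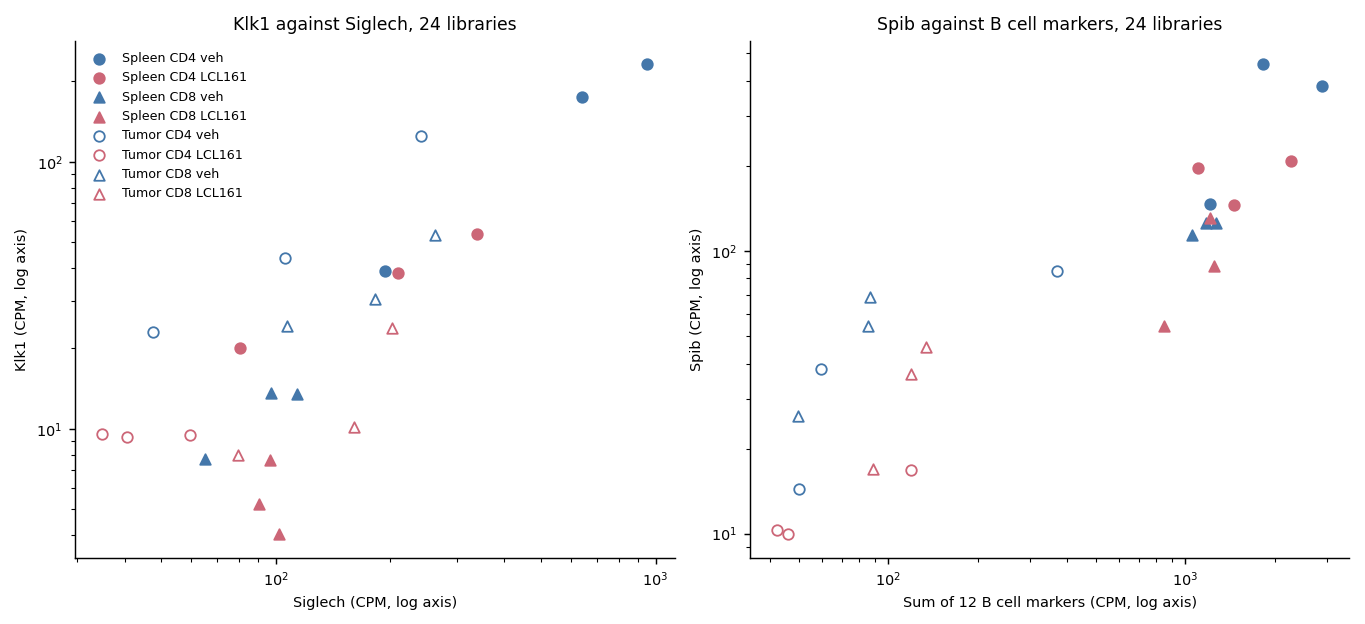
Left, Klk1 against Siglech, and right, Spib against the sum of 12 B cell markers (CPM, log axes), 1 point per library with circles for CD4-sorted, triangles for CD8-sorted, filled spleen, open tumor, blue vehicle and red LCL161. LCL161 libraries of spleen CD8 and both tumor populations lie below the vehicle libraries of their population for Klk1, and tumor libraries lie at lower B cell sums (42.2 to 371 CPM) than spleen libraries (846 to 2892 CPM).

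To see what LCL161 did to these RNAs, treated libraries were compared with vehicle in each population, in one edgeR quasi-likelihood model of all 8 groups with p-values adjusted over 20174 genes. In spleen CD4 all 7 genes had lower means with LCL161 and none passed the threshold of 0.05, where 0.431% of all genes did. The log2 fold changes ± SE were -1.99 ± 0.62 for Klk1 (adjusted p = 0.15, the lowest of the 7 by edgeR), -1.60 ± 0.60 for Ccr9, -1.51 ± 0.59 for Siglech, -1.40 ± 0.51 for Tcf4, -0.84 ± 0.53 for Spib, -0.78 ± 0.27 for Runx2 and -0.72 ± 0.54 for Pacsin1. Their median was -1.40 against 0.02 over all genes tested, of which 47.2% had a negative fold change. Of the 7, 5 had an unadjusted edgeR p under 0.05, and the share of all genes that did was not computed. DESeq2 called 1, Klk1 (adjusted p = 0.027), and 3.49% of all genes. Without vehicle replicate 2, the low library, edgeR called Klk1 (adjusted p = 0.048), and without LCL161 replicate 3 it called Runx2 (adjusted p = 0.014). Summed markers of conventional dendritic cells had 476 to 948 CPM under vehicle and 360 to 619 CPM under LCL161, and those of monocytes and macrophages 523 to 1047 and 300 to 909 CPM. Of these 2 lists of 12 markers, 0 and 1 passed the edgeR test. Neutrophil markers stood the other way, with 65.9, 40.1 and 574 CPM under vehicle and 219, 914 and 2226 CPM under LCL161, with 10 of 10 at a positive fold change and 0 past the test. No marker of the 3 lists was at 0 in a whole group, and their part in the result was not tested.

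In tumor CD4, 6 of the 7 had lower means with LCL161 and 0 passed edgeR's test, beside 0.322% of all genes. Klk1 was at -2.75 ± 0.65 on the log2 scale, with an adjusted edgeR p of 0.068. Spib followed at -1.88 ± 0.55 (adjusted p = 0.13), Pacsin1 at -1.66 ± 0.58, Siglech at -1.54 ± 0.60, Ccr9 at -1.04 ± 0.59, Tcf4 at -0.95 ± 0.51 and Runx2 at 0.08 ± 0.27. The median was -1.54 against -0.01 over all genes, of which 51.2% had a negative fold change. Of the 7, 4 had an unadjusted edgeR p under 0.05, and the share of all genes that did was not computed. DESeq2, which called 4.18% of all genes, called 2 of the 7, Klk1 (adjusted p = 0.00060) and Spib (adjusted p = 0.013), as did edgeR without vehicle replicate 3 (adjusted p = 0.022 and 0.030). The 12 monocyte and macrophage markers went from 3074 to 6514 CPM with vehicle to 1162 to 1950 CPM under LCL161, with 12 of 12 at a negative fold change and 1 past the edgeR test. The 12 B cell markers went from 50.2 to 371 CPM to 42.2 to 120 CPM, with 11 of 12 negative and 0 past it. None of these markers was at 0 in a whole group, and their part was not tested.

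In the CD8-sorted populations Klk1 again had the lowest fold change of the 7, and none passed. Spleen CD8 had 0 of 7 past the edgeR test, where 8.28% of all genes passed, and no unadjusted p under 0.05. Of the 7, 4 were negative, as were 45% of all genes, with a median of -0.27 against 0.06 over all genes. Klk1 was lowest at -1.04 ± 0.63 (edgeR adjusted p = 0.32), then Tcf4 at -0.49 ± 0.50 and Spib at -0.41 ± 0.52, while Siglech stood at 0.07 ± 0.58 with a 95% interval of -1.15 to 1.29. With only the libraries compared, the edgeR model across all genes called Tcf4 (adjusted p = 0.049). Tumor CD8 had 0 of 7 past the edgeR test beside 0.248% of all genes. There 6 were negative, as were 48.9% of all genes, with a median of -0.23 against 0.00 over all genes. Klk1 was at -1.37 ± 0.62 there (edgeR adjusted p = 0.43, the only unadjusted p under 0.05), and Spib at -0.58 ± 0.53. Siglech was at -0.32 ± 0.58 with an interval of -1.54 to 0.90. Its lower end lay close to the Siglech values of spleen CD4 (-1.51) and tumor CD4 (-1.54). The lower end in spleen CD8 (-1.15) did not reach them, and the differences between the sorts are tested below. DESeq2 called 0 of 7 in both, beside 14.6% of all genes in spleen CD8 and 1.78% in tumor CD8.

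**Figure D3:**
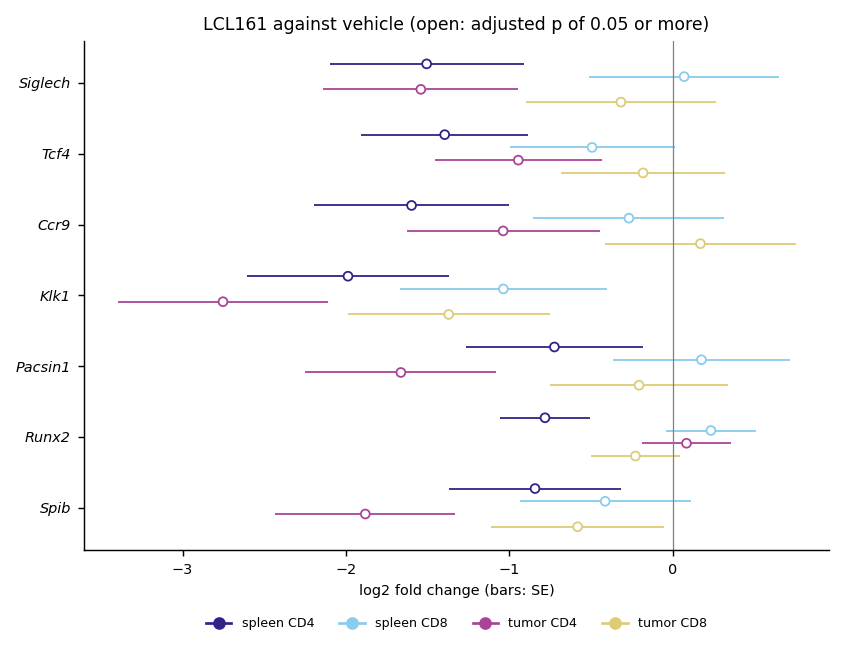
Log2 fold change of each gene between LCL161 and vehicle in the 4 populations, with bars of 1 SE, from the edgeR model. All points are open, since no gene passed an adjusted p of 0.05, and Klk1 lies to the left of 0 in all 4 populations, from -1.04 to -2.75.

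Because Klk1 was lower in each population, the mean of the 4 log2 fold changes was also tested over all genes, a comparison added after the values had been seen. It called 3 of the 7 genes, all lower, where 18.7% of all genes passed. Klk1, the kallikrein, had a mean effect of -1.79 ± 0.31 (edgeR adjusted p = 0.0011), Spib -0.93 ± 0.27 (adjusted p = 0.021) and Tcf4 -0.75 ± 0.25 (adjusted p = 0.044). Siglech, at -0.82 ± 0.29, had an adjusted edgeR p of 0.056. Ccr9 (-0.68 ± 0.29), Pacsin1 (-0.61 ± 0.28) and Runx2 (-0.17 ± 0.14) did not pass either. DESeq2 called 4, with Siglech added, beside 22.4% of all genes. The calls of Klk1 and Spib stood whichever 1 of the 24 libraries was left out, whereas that of Tcf4 was lost without any 1 of 18 libraries, for example spleen CD4 vehicle replicate 1 (edgeR adjusted p = 0.088). Without spleen CD4 vehicle replicate 2, or without spleen CD4 LCL161 replicate 3, 5 genes were called.

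Whether Klk1 changed by more than the other 6 was read from ratios of 2 genes within a library, which need no scaling between libraries. All 21 ratios were formed and each was tested for treatment, sorted population and tissue by an exact two-sided permutation test within the other factors, 63 tests in all, added after the values had been seen. The Siglech level was 3.67 to 4.98 times that of Klk1 in CPM in spleen CD4 vehicle and 4.02 to 6.30 times with LCL161. It went from 7.15 to 8.46 times to 12.6 to 25.4 times in spleen CD8, from 1.93 to 2.42 times to 3.67 to 6.27 times in tumor CD4, and from 4.43 to 5.93 times to 8.47 to 15.8 times in tumor CD8. The groups overlapped in spleen CD4 and in no other population. The mean log2 difference was 0.92, positive in 4 of 4 populations (exact permutation p = 3.75e-05, 0.00017 after Benjamini-Hochberg adjustment over the 63). All 6 ratios with Klk1 passed after that adjustment, whichever library was left out, with Klk1 being the gene that was lower. None of the other 15 ratios passed. The test takes libraries of different populations as separate, and the labels do not say whether they share mice. As given above, the Klk1b copies did not keep a fixed share of the Klk1 level under LCL161, and their part in these ratios was not tested. Klk1 is also an RNA of the exocrine pancreas. Of the list of 10 acinar markers, Klk1b5 is left out of the sums, since it shares sequence with Klk1. The other 9 summed to 37.97 to 106 CPM in tumor CD4 vehicle and 24.04 to 101 CPM under LCL161, and to 16.03 to 43.2 and 7.45 to 29.5 CPM in tumor CD8. In spleen CD4 they summed to 12.5, 12.2 and 16.02 CPM under vehicle and 30.1, 18.5 and 13.8 CPM under LCL161, and in spleen CD8 to 2.24 to 5.22 and 6.01 to 10.04 CPM. In spleen CD8 every LCL161 library was above every vehicle library in this sum. For Klk1 every one was below, the nearest libraries being 7.66 against 7.68 CPM. Of the whole list of 10, fold changes with LCL161 were negative for 10 and 9 in the tumor and for 2 and 1 in the spleen, CD4 first, and 0 passed the edgeR test in any population. At 0 in a whole group were 4 of the 10 in spleen CD8 vehicle, 2 in spleen CD4 vehicle and 1 in spleen CD4 LCL161. Their part in the Klk1 results was not tested.

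The other genes of the cell type were read from lists, which overlap with those of other cells. Ly6c2, for example, is also on the list of monocyte and macrophage markers. Of 20 other plasmacytoid markers, 0 passed the edgeR test in any of the 4 populations. Their fold changes were negative for 19 in spleen CD4 (median -1.06), 12 in spleen CD8 (-0.21), 19 in tumor CD4 (-1.495) and 14 in tumor CD8 (-0.21). Havcr1, a receptor for phosphatidylserine, went from 4.97, 10.6 and 1.44 CPM to 1.27, 0.389 and 0.186 CPM in tumor CD4 (log2 fold change -3.18 ± 0.81, edgeR adjusted p = 0.083). Smim5, whose profile was nearest to that of Siglech, was at -1.74 ± 0.53 in spleen CD4 and -1.97 ± 0.55 in tumor CD4 (edgeR adjusted p = 0.14 and 0.12). Mzb1, a chaperone of secretory cells, was at -1.84 ± 0.51 in tumor CD4 (edgeR adjusted p = 0.11), and Cd209d, a lectin of the DC-SIGN family, at -1.90 ± 0.70 in spleen CD8 (edgeR adjusted p = 0.096). In the mean over the 4 populations 7 of the 20 passed, all lower (median -0.69), in a contrast that called 18.7% of all genes.

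Of 16 regulators of dendritic cell development, 0 passed in spleen CD4, tumor CD4 and tumor CD8. In spleen CD8, where 8.28% of all genes passed in either direction, 3 were lower. These were Cbfa2t3, a corepressor also known as ETO2 (112, 106 and 114 CPM to 12.7, 18.7 and 10.9 CPM, log2 fold change -2.98 ± 0.56, edgeR adjusted p = 0.0046), Zbtb46, a factor of conventional dendritic cells (89.8, 111 and 113 CPM to 29.4, 37.5 and 25.6 CPM, edgeR adjusted p = 0.018), and Ikzf1, a lymphoid factor (223, 215 and 223 CPM to 166, 96.1 and 93.8 CPM, edgeR adjusted p = 0.035). In that population the 12 conventional dendritic cell markers, which include Zbtb46, Batf3 and Flt3, went from 8254 to 9062 CPM to 1206 to 4440 CPM, with 12 of 12 negative, 3 past the test and none at 0 in a whole group, and their part was not tested. Id2, the inhibitor that opposes E2-2, had 643 ± 157 and 536 ± 254 CPM in spleen CD4 and 1358 ± 361 and 1611 ± 60.3 CPM in tumor CD4, vehicle first (SD, n = 3). Irf8, a factor that plasmacytoid and conventional dendritic cells both need, had 1524, 351 and 1223 CPM in spleen CD4 vehicle and 240, 499 and 624 CPM under LCL161. In spleen CD8 it had 1423 to 1524 CPM under vehicle and 417 to 701 CPM under LCL161.

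Genes of nucleic acid sensing did not pass in any of the 4 LCL161 comparisons (0 of 14 by edgeR), with medians from -0.35 in spleen CD4 to -0.17 in tumor CD8. The lowest adjusted p was that of Irf5, a factor downstream of Toll-like receptors (-1.04 ± 0.36 in spleen CD8, edgeR adjusted p = 0.079). Tlr7, the receptor for single-stranded RNA, had 84.2, 22.7 and 77.2 CPM in spleen CD4 vehicle and 9.23, 32.2 and 39.8 CPM under LCL161. Tlr9, the receptor for unmethylated DNA, was highest at 4.995 CPM, in spleen CD4 vehicle replicate 1. The 19 genes of type I and III interferons, the product these cells are known for, all failed the filter on low counts, and their sum was at most 0.582 CPM in any library. Of 7 partners of E2-2 and RUNX factors, among them Tcf3, Tcf12, Runx1 and Runx3, 0 passed in any population.

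**Figure D4:**
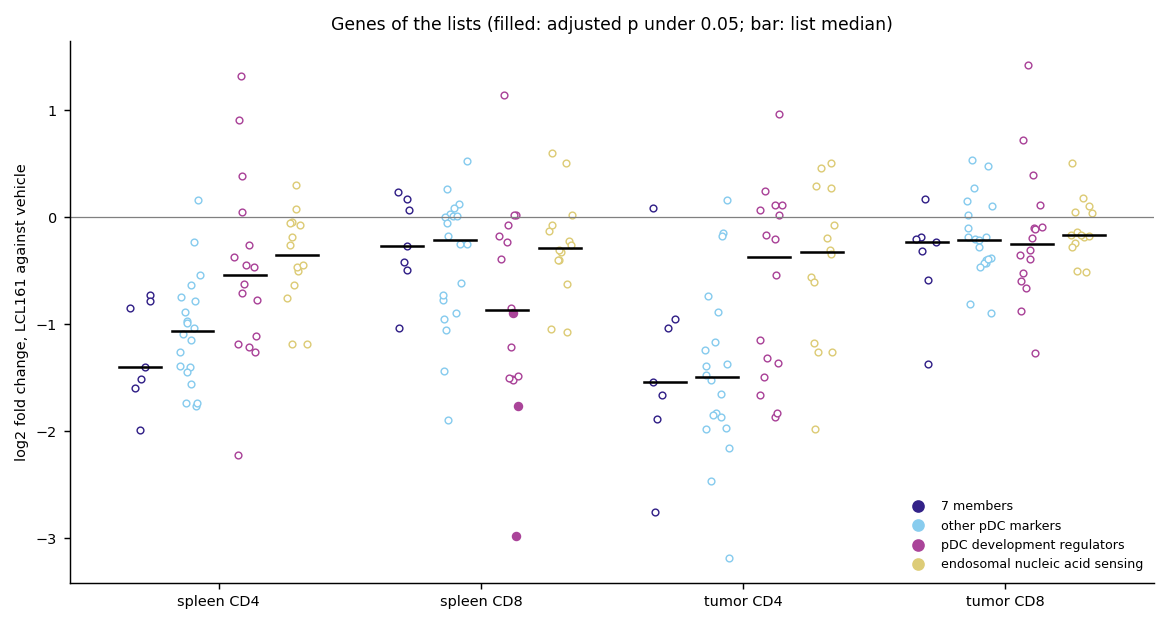
Log2 fold change between LCL161 and vehicle for each gene of 4 lists in the 4 populations, 1 point per gene, filled where the edgeR adjusted p is under 0.05, with the list median as a bar. The medians of the 7 genes and of the 20 other markers lie lowest in the CD4-sorted populations (-1.06 to -1.54), and the 3 filled points are regulators in spleen CD8.

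Whether LCL161 acted differently between populations was tested as a difference of effects. Between the CD8 and CD4 sorts of the spleen, 0 of 7 genes passed the edgeR test and 0.292% of all genes did. The differences ran from 0.43 to 1.58 on the log2 scale, the lowest adjusted p being 0.29 for Runx2 (1.02 ± 0.39), the only 1 of the 7 with an unadjusted p under 0.05. Without spleen CD4 LCL161 replicate 3, Runx2 passed (edgeR adjusted p = 0.030). Siglech had a difference of 1.58 ± 0.83, with a 95% interval of -0.16 to 3.31. Between the sorts of the tumor 0 of 7 passed, as did 0% of all genes, with differences from -0.31 to 1.46 and no unadjusted edgeR p under 0.05. Between tissues 0 of 7 passed in CD4 and 0 of 7 in CD8, where 0.00991% and 0.0248% of all genes passed, with lowest adjusted edgeR p-values of 0.47 and 0.77 and with 1 and 0 unadjusted p-values under 0.05. DESeq2 called 0 of 7 in each of the 4, beside 2.81%, 0.166%, 0.689% and 1% of all genes in the order given. These data therefore do not show that the lower means in CD4-sorted cells differ from those in CD8-sorted cells, and the intervals do not show that they are alike.

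To compare the tissues, tumor libraries were set against spleen libraries of the same sort and treatment. In CD4-sorted cells with vehicle 4 of the 7 genes were lower in the tumor, where 16.4% of all genes passed in either direction. Spib fell by 2.85 ± 0.56 on the log2 scale (edgeR adjusted p = 0.0021), Pacsin1 by 2.65 ± 0.58 (0.0044), Tcf4 by 2.17 ± 0.52 (0.0086) and Siglech by 2.18 ± 0.61 (0.020). For Spib, Pacsin1 and Tcf4 no tumor library reached the lowest spleen library, and the edgeR calls stood without any single library. That of Siglech was lost without spleen replicate 1 (adjusted p = 0.10) or without tumor replicate 1 or 3 (0.064 and 0.065). With the 6 libraries fitted alone edgeR called 0 of 7, with adjusted p from 0.082 for Pacsin1 to 0.17 for Siglech among the 4. Ccr9 (-1.41 ± 0.59), Klk1 (-1.22 ± 0.60) and Runx2 (-0.43 ± 0.27) did not pass. Without tumor replicate 2 both Ccr9 and Klk1 passed (edgeR adjusted p = 0.031 and 0.036).

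With LCL161, 5 of the 7 were lower in CD4-sorted cells of the tumor, beside 21.3% of all genes. These were Spib (-3.89 ± 0.59, edgeR adjusted p = 0.00023), Pacsin1 (-3.59 ± 0.61, 0.00053), Siglech (-2.22 ± 0.61, 0.015), Tcf4 (-1.72 ± 0.52, 0.024) and Klk1 (-1.98 ± 0.63, 0.031). The libraries of the tissues did not overlap for any of the 5, and the share of all genes that separate in this way was not computed. Spib and Pacsin1 kept their calls without any single library. Without tumor replicate 2 or without tumor replicate 3 they were the 2 that remained, with the other 3 at adjusted p from 0.053 to 0.083. Tcf4 and Klk1 were each lost without any 1 of 5 of the 6 libraries (edgeR adjusted p from 0.056 to 0.092), and Siglech also without spleen replicate 3 (0.061). Runx2, at 0.44 ± 0.27, passed as higher in the tumor without spleen replicate 3 (edgeR adjusted p = 0.0075).

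CD8-sorted cells gave another picture. With vehicle 1 of 7 passed, Runx2, which was higher in the tumor (42.0 to 59.2 CPM against 77.8 to 101 CPM, log2 fold change 0.86 ± 0.27, edgeR adjusted p = 0.041), where 14.8% of all genes passed. That call was lost without any 1 of 5 of the 6 libraries, at adjusted p from 0.067 to 0.16, the exception being spleen replicate 2. Klk1 was at 1.64 ± 0.62 and Spib at -1.29 ± 0.53, with groups that did not overlap (edgeR adjusted p = 0.085 and 0.12). Of 11 alternative settings, Klk1 passed in 2 and Spib in 1. With LCL161 0 of 7 passed edgeR beside 8.77% of all genes, with 1 unadjusted p under 0.05, and DESeq2 called 1, Spib (-1.46 ± 0.54 by edgeR, DESeq2 adjusted p = 0.043), and 12.7% of all genes. Siglech was at 1.00 ± 0.59 with vehicle and 0.61 ± 0.58 with LCL161. The difference of these tissue contrasts between the sorts was not tested. Comparisons in this and the foregoing paragraphs share libraries with each other and with the LCL161 comparisons.

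Within libraries the genes took different proportions in the 2 tissues. The Siglech level was 0.518 to 2.08 times that of Spib in CPM in the 12 spleen libraries and 2.77 to 4.71 times in the 12 tumor libraries. The tissues did not overlap in this ratio (mean log2 difference 1.77, exact permutation p = 1.25e-05, the smallest that the test can give, 6.56e-05 adjusted over the 63). The ratio of Ccr9 to Spib was higher in the tumor by 2.34 and that of Klk1 to Spib by 2.39 on the log2 scale, and 16 of the 21 ratios passed. The ratio of Pacsin1 to Spib was not among them. In CD4-sorted cells both Spib and Pacsin1 were lower in the tumor. In CD8-sorted cells neither passed the edgeR test. There Pacsin1 was at -0.19 ± 0.54 with vehicle and -0.57 ± 0.55 with LCL161 on the log2 scale, and Spib at -1.29 ± 0.53 and -1.46 ± 0.54. Sums of B cell markers were lower in the tumor in both sorts. With vehicle their sum was 1213 to 2892 CPM in spleen CD4 and 50.2 to 371 CPM in tumor CD4. By edgeR 12 of 12 were lower there, where 16.4% of all genes passed in either direction. In the CD8 sort the sum was 1055 to 1265 CPM and 49.8 to 87.2 CPM, with 10 of 12 lower, where 14.8% of all genes passed. With LCL161 it was 1100 to 2268 against 42.2 to 120 CPM in CD4 and 846 to 1250 against 89.1 to 134 CPM in CD8. None of the 12 was at 0 in a whole group, and their part in the results for Spib and Pacsin1 was not tested.

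The other plasmacytoid markers followed the tissue in CD4-sorted cells, with 12 of 20 lower in the tumor with vehicle (median -2.07) and 15 of 20 with LCL161 (-2.34), and 0 higher in either. Of all genes, 16.4% and 21.3% passed there in either direction. The list of 20 includes Blnk and Ly6d, whose profiles were among those most like Spib. B cell markers were lower in the tumor as well, as given above, and their part in these counts was not tested. In CD8-sorted cells 1 of the 20 was higher and 1 lower with vehicle (median 0.47), and 0 higher and 1 lower with LCL161 (0.49). There 14.8% and 8.77% of all genes passed.

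To compare the sorts, CD8-sorted libraries were set against CD4-sorted ones. In the spleen with vehicle 3 of 7 were lower in the CD8 sort, where 11.4% of all genes passed in either direction. Klk1 was lower by the most, from 38.9 to 232 CPM in CD4 to 7.68 to 13.6 CPM in CD8 (log2 fold change -3.68 ± 0.67, edgeR adjusted p = 0.0015). Siglech was at -2.69 ± 0.62 (adjusted p = 0.0078) and Runx2 at -1.38 ± 0.28 (adjusted p = 0.0032). Each of the 3 kept its call without any single library, and their groups did not overlap. Tcf4 (-1.5 ± 0.51), Ccr9 (-1.70 ± 0.60), Pacsin1 (-1.68 ± 0.55) and Spib (-1.44 ± 0.53) had edgeR adjusted p from 0.057 to 0.088, and DESeq2 called all 7, beside 14.7% of all genes. Without the low CD4 vehicle replicate 2 edgeR called 6, all but Pacsin1. Conventional dendritic cell markers ran the other way, from 476 to 948 CPM in CD4 to 8254 to 9062 CPM in CD8, with 7 of 12 higher and 1 lower.

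With LCL161 the spleen comparison gave 1 of 7, Klk1 (-2.73 ± 0.65, edgeR adjusted p = 0.0077), which was lower in the CD8 sort also without any single library, beside 17.4% of all genes. Siglech was at -1.12 ± 0.59 and Spib at -1.01 ± 0.53. Of the 20 other plasmacytoid markers 6 were lower and 0 higher in the CD8 sort of the vehicle spleen (median -1.46), where 11.4% of all genes passed. With LCL161 2 were lower and 1 higher (-0.88). In the tumor with vehicle 0 of 7 passed edgeR and 4.07% of all genes did, with no unadjusted p under 0.05. DESeq2 called 0 of 7 there and 8.16% of all genes. The tumor with LCL161 gave 1 of 7 beside 2.87% of all genes. This was Pacsin1, higher in the CD8 sort (2.86, 6.28 and 0.978 CPM against 16.9, 21.5 and 8.93 CPM, log2 fold change 2.24 ± 0.59, edgeR adjusted p = 0.047). Its call was lost without CD4 replicate 1 or 3 or any 1 of the CD8 replicates, at adjusted p from 0.061 to 0.18. Siglech (1.71 ± 0.60), Ccr9 (1.60 ± 0.60) and Spib (1.42 ± 0.55) had groups that did not overlap either, with edgeR adjusted p of 0.14, 0.17 and 0.18, and DESeq2 called Siglech beside Pacsin1 and 6.02% of all genes.

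**Figure D5:**
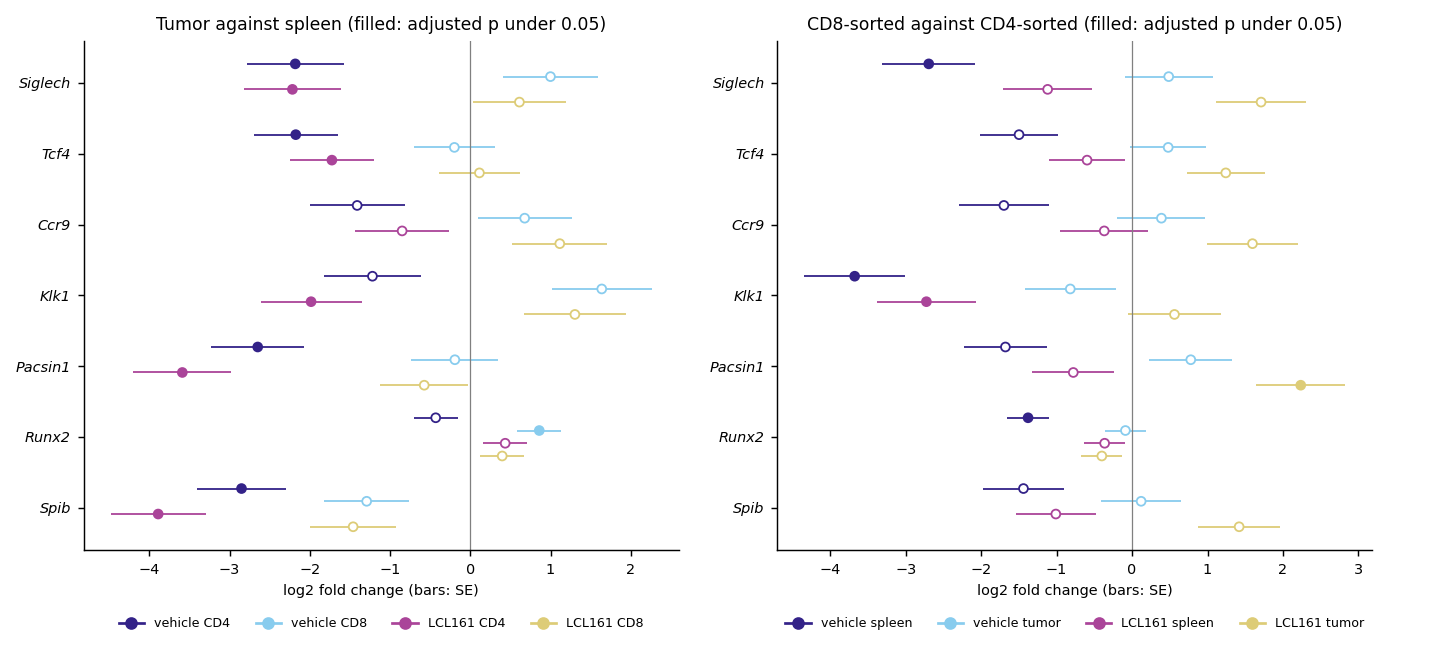
Log2 fold change of each gene between tumor and spleen (left, 4 sorts and treatments) and between CD8-sorted and CD4-sorted libraries (right, 4 tissues and treatments), with bars of 1 SE, filled where the edgeR adjusted p is under 0.05. On the left, Spib lies below 0 in all 4 comparisons (-1.29 to -3.89), and on the right, filled spleen points lie below 0 and the filled tumor point, Pacsin1, above.

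The ratio of Siglech to Klk1 separated the sorts as well. It was 3.67 to 4.98 in spleen CD4 vehicle and 7.15 to 8.46 in spleen CD8 vehicle, and 1.93 to 2.42 and 4.43 to 5.93 in the tumor. With LCL161 it was 4.02 to 6.30 and 12.6 to 25.4 in the spleen, and 3.67 to 6.27 and 8.47 to 15.8 in the tumor. In each of the 4 settings every CD8-sorted library was above every CD4-sorted one (mean log2 difference 1.30, exact permutation p = 1.25e-05, the smallest possible, 6.56e-05 adjusted over the 63). Of the 21 ratios 6 passed for the sort. Of these 5 held Klk1, lower in CD8 relative to Siglech, Tcf4, Ccr9, Pacsin1 and Spib. The sixth was that of Siglech to Ccr9 (-0.42, adjusted p = 0.025 by the exact permutation test). It was at -1.02 with vehicle and -0.72 with LCL161 in the spleen, but at 0.06 and -0.003 in the tumor. Its call was lost without tumor CD4 LCL161 replicate 3 or tumor CD8 LCL161 replicate 3 (adjusted p = 0.064 and 0.052). In the tissue comparison the ratio of Siglech to Runx2 was the only one of the 16 to be lost, without any 1 of 9 libraries. That ratio was lower in the tumor in CD4-sorted cells only (-1.77 with vehicle and -2.56 with LCL161, against 0.07 and 0.11 in CD8).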

How the data were processed

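RNA was extracted with a Qiagen kit and sequenced from 24 libraries, per the labels' protocols. The submitters' processing notes name cutadapt, STAR 2.7.3a and the build GRCm38. The authors deposited expected counts for 55025 gene symbols, with a counting tool, annotation and strand mode not given in the sources used here. Testing used rounded values, since 52.7% of those above 0 had decimals. No 2 replicates agreed within counting error (chi-square per gene 13.03 to 134.9 over 24 pairs).

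The test was edgeR 4.0.16 under R 4.3.3 (20174 genes kept by filterByExpr at a minimum count of 10; TMM scaling, with factors of 0.939 to 1.05; a single robust quasi-likelihood fit to the 8 groups with 16 residual degrees of freedom), with 17 contrasts and Benjamini-Hochberg adjustment within each over all genes tested. The pipeline was tested on simulated data. Alternatives were RLE scaling, no filter, DESeq2 1.42.0, only the libraries compared, a replicate block and each library left out. Same-numbered samples had all 3 correlations over 0.1 only between spleen CD8 LCL161 and tumor CD8 LCL161 (0.148 to 0.313). This does not show which samples share a mouse, and the labels give no source for the pairing. Wherever groups are said not to overlap, the share of all genes that do the same was not computed. Correlations used log2 CPM with a prior count of 2. Promoters came from RefSeq, with windows read for 6 of 7 members and Tcf4 left out. Gene models came from GENCODE M21, with 7 of 7 matched by symbol. All 7 members are reported. From the lists, up to 4 genes with the smallest adjusted p and the best expressed ones are named, with Tlr7, Tlr9, Tcf3, Tcf12, Runx1 and Runx3 added for their roles. Members and lists were chosen with earlier results of these data known, and the mean LCL161 effect, the ratios and Cd8b1 were added after values were seen. Ratios and figures used Python 3.11.15.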

Additional observations from a re-analysis of the deposited data

How the results depend on the processing

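RLE scaling moved no count of called members by over 1.5 times in the 17 comparisons, and no called value changed sign under any alternative. With DESeq2 the counts for LCL161 became 1 in spleen CD4 and 2 in tumor CD4, for tumor against spleen 2 in vehicle CD8 and 1 in LCL161 CD8, and for CD8 against CD4 7 in the vehicle spleen and 2 in the LCL161 tumor. For tumor against spleen in vehicle CD8 the share of all genes called by DESeq2 was not computed, nor were shares for the other alternatives. Without the filter the counts of tumor against spleen in vehicle CD8 and of CD8 against CD4 in the LCL161 tumor became 0 and 0. With only the libraries compared, spleen CD8 under LCL161 gave 1, tumor against spleen 0 in vehicle CD4, 3 in vehicle CD8 and 1 in LCL161 CD8, and CD8 against CD4 in the LCL161 tumor 0. Where these counts differ the cause was not tested.

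Leaving out 1 library gave 0 to 1 for LCL161 in spleen CD4, 0 to 2 in tumor CD4, 0 to 1 for the difference of effects between the spleen sorts, 2 to 5 for the mean effect, 3 to 6 for tumor against spleen in vehicle CD4, 0 to 1 in vehicle CD8 and 2 to 5 in LCL161 CD4, and for CD8 against CD4 3 to 6 in the vehicle spleen and 0 to 1 in the LCL161 tumor. Values that did not pass and changed sign when a library was left out were, for LCL161, Siglech in spleen CD8 (-0.15 to 0.23), Runx2 in tumor CD4 (-0.064 to 0.22), and in tumor CD8 Ccr9 (-0.10 to 0.47), Siglech (-0.62 to 0.019), Tcf4 (-0.65 to 0.16) and Pacsin1 (-0.50 to 0.072). For tumor against spleen they were Tcf4 (-0.49 to 0.057) and Pacsin1 (-0.45 to 0.059) in vehicle CD8 and Tcf4 in LCL161 CD8 (-0.34 to 0.47). For CD8 against CD4 they were, in the vehicle tumor, Klk1 (-1.22 to 0.15), Ccr9 (-0.018 to 1.24), Runx2 (-0.20 to 0.053) and Spib (-0.30 to 0.95), in the LCL161 spleen Ccr9 (-0.74 to 0.16) and Runx2 (-0.60 to 0.15), and in the LCL161 tumor Klk1 (-0.059 to 0.85). For the ratios that passed among the 63 tests, 661 results without a library stayed past the threshold and 11 did not.

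Samples with the same replicate number deviated together (all 3 correlations over 0.1) in 1 of 28 pairs of groups, spleen CD8 LCL161 with tumor CD8 LCL161, where the correlations were 0.148 to 0.313 and the replicate block left the count of tumor against spleen at 0. The other pairs of groups did not meet this rule, which does not show whether their same-numbered samples share a mouse. Between spleen CD4 vehicle and spleen CD8 vehicle the correlations were 0.043 to 0.216. Between spleen CD8 LCL161 and tumor CD8 vehicle, groups of different treatment, they were 0.042 to 0.283. With the replicate block the counts stayed within 1.5 times, with CD8 against CD4 in the vehicle spleen going from 3 to 4 by adding Pacsin1 (adjusted p = 0.027).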

Other observations

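Cd8b1, the gene of the CD8 beta chain, was present in CD4-sorted libraries in which Cd8a was near 0, and was singled out after its values had been seen. In spleen CD4 vehicle Cd8b1 had 97.1, 15.4 and 73.3 CPM for replicates 1, 2 and 3, while Cd8a had 3.98, 1.29 and 1.11 CPM. Replicate 2 was the low library for Cd8b1 as for Siglech (952, 194 and 640 CPM). With LCL161 the spleen CD4 libraries had 16.8, 17.8 and 18.1 CPM of Cd8b1, where Siglech rose over the replicates (80.4, 210 and 339 CPM). In tumor CD4 the values were 33.0, 58.3 and 11.9 CPM with vehicle, where Siglech stood at 106, 241 and 47.7 CPM. With LCL161 the tumor CD4 values were 17.5, 5.28 and 16.6 CPM, where Siglech stood at 59.5, 35.0 and 40.7 CPM. The relation of Cd8b1 to Siglech was not tested. In CD8-sorted libraries Cd8b1 ran from 326 to 1175 CPM.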
